A study of Mus musculus with 9 samples.

Results

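Cells build cholesterol and long-chain fatty acids from the same starting unit, acetyl-CoA, along enzyme chains that are largely under common transcriptional control. A set of 32 genes of these routes was read in bulk RNA-seq of fetal liver (FL) macrophages from embryos with or without Cre-mediated deletion of Xpr1, which encodes a phosphate exporter. The set was chosen by gene symbol: 26 genes form a sterol arm (18 synthesis enzymes in pathway order, 4 genes that sense sterol and 4 that move or store it) and 6 form a fatty acid arm. Each of the 32 was found by its Ensembl identifier in the table of 13708 genes, and each passed the filter on low values (10 or more normalized counts in 4 or more samples) that 13594 genes passed.

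The series compares macrophages sorted as CD45+ F4/80hi CD11blow from livers of mouse embryos at E15.5, with 5 samples of the genotype Mrc1Cre Xpr1fl/fl and 4 of the genotype Xpr1fl/fl. Both genotypes are homozygous for an Xpr1 allele in which loxP sites flank an exon, so the controls carry the floxed allele without Cre. In Mrc1Cre Xpr1fl/fl embryos the recombinase was expressed from the Mrc1 locus, which encodes the mannose receptor CD206 and is also active in liver sinusoidal endothelium, so deletion follows CD206 rather than macrophage identity. The labels do not say whether a sample was 1 embryo or a pool of embryos, and the p-values measure the spread between these samples. Xpr1 itself had 1174, 1187, 1074, 1285 and 1091 normalized counts in Mrc1Cre Xpr1fl/fl samples 1 to 5 and 1781, 1859.6, 2239 and 2047 in Xpr1fl/fl samples 1 to 4 (log2 fold change −0.77 with a standard error of 0.079, adjusted p = 4.13e-05 by limma). No Mrc1Cre Xpr1fl/fl sample reached a control, and the remaining level counts whole-gene reads, to which transcripts without the floxed exon can still contribute. Values are gene counts divided by DESeq2 normalization factors, the totals per sample (26942921 to 28309443) are set by that normalization, and the sequencing depth is unknown.

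The samples also differ by the date that opens their column names, whose meaning is not given in the sources used here. Sample 5 of Mrc1Cre Xpr1fl/fl and samples 1 to 3 of Xpr1fl/fl carry the earliest of the 3 dates, Xpr1fl/fl sample 4 the middle date, and Mrc1Cre Xpr1fl/fl samples 1 to 4 the latest. Genotype and date are therefore almost confounded. A fit with the date as a term rests on Mrc1Cre Xpr1fl/fl sample 5 against the 3 controls of its own date. That sample has no replicate within its date, so the p-values of this fit take their spread from the Mrc1Cre Xpr1fl/fl samples of the latest date and the controls of the earliest and assume that sample 5 varies like them. Its estimates are given below for each gene of the set that passed the test.

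In the sterol route, acetyl-CoA is joined to mevalonate, mevalonate is turned into isoprene units, these are coupled to squalene, and squalene is closed into lanosterol and trimmed to cholesterol. When sterol in the endoplasmic reticulum is low, the escort SCAP carries the precursor of the transcription factor SREBP2 to the Golgi for cleavage, and when sterol is ample the INSIG proteins hold the complex back. Macrophages that engulf other cells take in cholesterol through lysosomes, where NPC1 and NPC2 export it. FL macrophages are known for engulfing the nuclei that maturing red cells expel.

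The identity of the sorted cells was read from marker lists before the pathway genes. General macrophage markers were abundant in both genotypes: Adgre1, which encodes F4/80, had 45074 to 48554 normalized counts in Mrc1Cre Xpr1fl/fl and 42249.8 to 52419 in Xpr1fl/fl samples, and Csf1r, the receptor for CSF-1, had 75601 to 91178 and 71872 to 84135. Neither passed the test. Of the 10 macrophage markers, 4 were lower (Timd4, Clec4f, Vsig4 and Cd5l) and 1, Spi1, was higher in Mrc1Cre Xpr1fl/fl samples. Cd5l had the most normalized counts of the list in Xpr1fl/fl samples and Csf1r in Mrc1Cre Xpr1fl/fl samples, with Cd5l at 44616 to 72987 against 84219.9 to 124302. Vsig4, a receptor of resident liver macrophages, stood at 6.8 to 17.6 against 240.2 to 769. The summed macrophage list was 218642, 229767, 262518, 255991 and 243093 in Mrc1Cre Xpr1fl/fl samples 1 to 5 and 294236, 250624, 322725 and 319447 in Xpr1fl/fl samples 1 to 4.

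RNA of other cell types was present and was lower in Mrc1Cre Xpr1fl/fl samples for most lists. The erythroid sum was 120676, 90721, 154378, 144081 and 303295 in Mrc1Cre Xpr1fl/fl samples 1 to 5 and 547725, 397337, 637947 and 618759.7 in Xpr1fl/fl samples 1 to 4. All 11 tested erythroid markers of 12 listed were lower (Ahsp was not in the table), the one with the most counts in every sample being Hba-a1, an alpha globin, at 25798 to 85791 against 113877 to 181388. Mrc1Cre Xpr1fl/fl sample 5 held the highest erythroid sum of its genotype. Hepatocyte markers summed to 10892, 7938, 7955, 9435 and 10958 and 17362, 16532, 17162 and 32888, with 9 of 10 lower and Afp, alpha-fetoprotein, the highest in counts at 5759 to 7795 against 11650.5 to 23242. Xpr1fl/fl sample 4 stood apart with the highest hepatocyte sum. Endothelial markers summed to 15812, 15393, 19959.8, 20751 and 17981 and 26499, 26319.8, 33932 and 33349, with 8 of 9 lower and Cdh5, which liver macrophages also express, the highest in counts at 9134 to 12390.5 against 15352 to 21805.

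The neutrophil and granulocyte progenitor list summed to 5365, 4978, 8544, 6244 and 18148 and to 32699, 19513, 54028 and 8771, and Xpr1fl/fl sample 3 held the highest value. Of its 8 markers, Elane, Mpo and Prtn3 were lower, with Mpo at 1524 to 2194 against 5254 to 9596, while S100a9 had 908 to 4995 against 637 to 14013 and did not pass the test. Mpo had the most counts of the list in 6 of the 9 samples and S100a9 in the other 3. Monocyte markers summed to 7018, 10108, 7709, 8233 and 7189 and 5102, 5274, 4778 and 3555, with 2 of 4 higher (Plac8, the highest in counts at 5105 to 7603 against 2731 to 3819, and Ms4a4c) and 1, Ly6c2, lower. Megakaryocyte markers summed to 1037, 722, 989, 725 and 962 and 2322, 2146, 2234 and 2578, with 2 of 5 lower and Pf4 the highest in counts at 438 to 667 against 1614 to 2097. Gp1bb was listed at 0 in Mrc1Cre Xpr1fl/fl sample 4, and no other marker was at 0 in any sample. In bulk RNA, fewer cells of a type and less RNA per cell cannot be told apart, and the part of these cell types in the pathway values below was not tested.

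Across the 32 genes, 13 passed the test between genotypes (40.6%), against 43.1% of all genes tested, so the set was called about as often as the transcriptome around it. Of these 13, 7 were higher (Acaca, Soat1, Scap, Insig1, Sc5d, Npc1 and Srebf2) and 6 were lower (Fads2, Fdft1, Tm7sf2, Fads1, Idi1 and Acat2) in Mrc1Cre Xpr1fl/fl macrophages. Over all genes, 2926 (21.5%) were higher and 2939 (21.6%) were lower. Changes were small: the median absolute log2 fold change was 0.155 over the 32 genes and 0.246 over all genes tested. The genotypes did not overlap for 11 of the 32 (34.4%), against 34.1% of all genes tested, and the 11 were among the 13 that passed. The direction of small changes depended on scaling, since with samples brought to a common 75th percentile 3 of the 32 were higher and 8 lower (34.4% called, against 42.0% of all genes), and of all genes 1999 (14.7%) were higher and 3707 (27.3%) lower, while the median over all genes moved from 0.005 to −0.074 on the log2 scale.

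**Figure D1:**
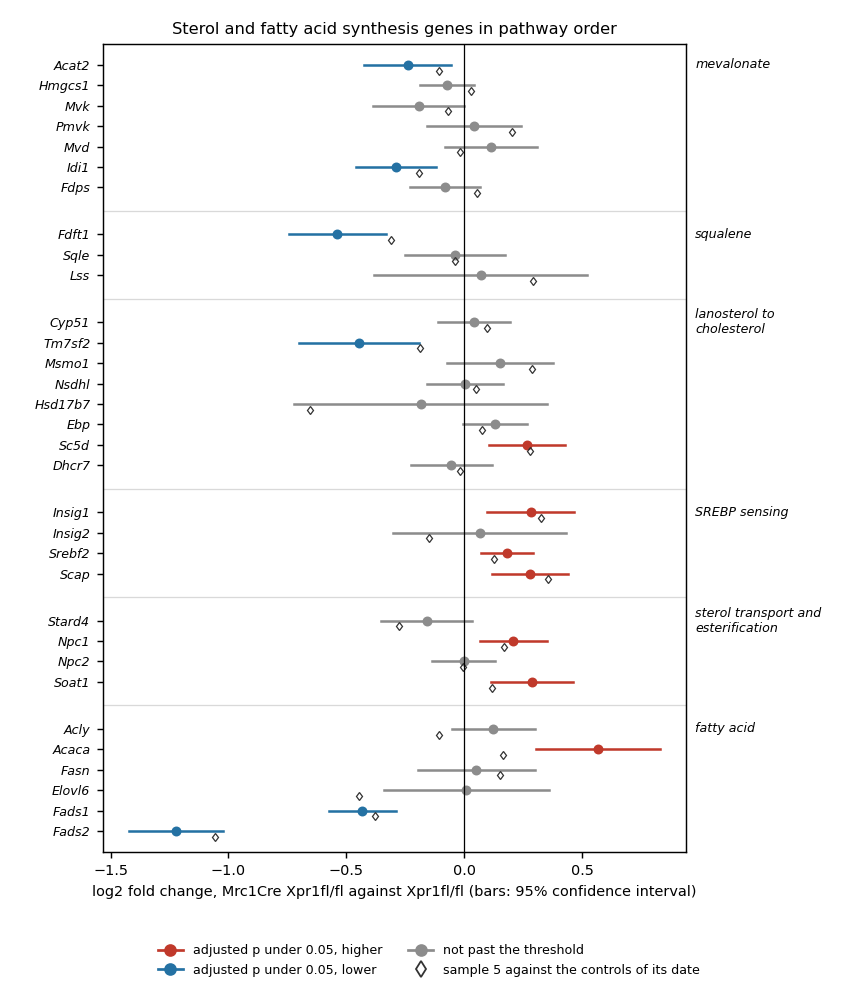
The log2 fold change of each of the 32 genes (Mrc1Cre Xpr1fl/fl against Xpr1fl/fl, 5 and 4 samples) is drawn in pathway order with its unadjusted 95% confidence interval, red or blue where limma gave an adjusted p under 0.05, and open diamonds show Mrc1Cre Xpr1fl/fl sample 5 against the 3 controls of its date. Of the synthesis enzymes, Acat2, Idi1, Fdft1 and Tm7sf2 are blue and Sc5d is red, the 4 sensing genes lie right of 0 with 3 of them red, and Fads2 lies farthest left at −1.22.

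With the date as a term, Fads2 alone of the 32 passed the test (3.12%), and it was lower, against 1194 of all genes tested (8.78%), of which 577 (4.24%) were higher and 617 (4.54%) lower. All 13 genes kept their sign. For 7 of the 13, Mrc1Cre Xpr1fl/fl sample 5 was nearer to the control mean than any other sample of its genotype. How often this held over all genes was not counted. Without Mrc1Cre Xpr1fl/fl sample 5, the other 4 samples of that genotype, which share no date with a control, gave the same 13 calls and added Acly. Calls over all genes rose too, to 3050 higher and 3031 lower, from 2926 and 2939 with all 9 samples.

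The mevalonate segment holds 7 enzymes, of which 2 were lower, 5 did not pass the test and none was higher (28.6% called, against 43.1% of all genes). Hmgcs1, the cytosolic HMG-CoA synthase and a standard SREBP2 target, had 1614, 1541, 1614, 1521 and 1705 normalized counts in Mrc1Cre Xpr1fl/fl samples 1 to 5 and 1751, 1665, 1606 and 1705 in Xpr1fl/fl samples 1 to 4. Its genotypes overlapped and the difference did not pass the test (log2 fold change −0.073 with a standard error of 0.053, adjusted p = 0.288 by limma, 95% confidence interval −0.19 to 0.043). Acat2, which in the mouse nomenclature is the cytosolic acetyl-CoA acetyltransferase at the head of the route, read 372, 395, 382, 357 and 427 in Mrc1Cre Xpr1fl/fl and 433, 437, 514 and 444 in Xpr1fl/fl samples. It was 1.18-fold lower (log2 fold change −0.24 with a standard error of 0.085, adjusted p = 0.0387 by limma), with a narrow gap between the genotypes, and the call was lost when any 1 of 7 of the 9 samples was left out, the adjusted p reaching 0.123 without Xpr1fl/fl sample 3. Its log2 fold change was −0.11 with the date as a term (adjusted p = 0.691). Acat2 overlaps Tcp1 on the other strand, which was higher (0.19, adjusted p = 0.0265), and the sources used here do not say whether the quantification used strand.

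Idi1, the isomerase that supplies both forms of the isoprene unit, had 608, 524, 597, 572 and 623 normalized counts in Mrc1Cre Xpr1fl/fl samples 1 to 5 against 697, 791, 653 and 719 in Xpr1fl/fl samples 1 to 4. All controls lay above all Mrc1Cre Xpr1fl/fl samples (log2 fold change −0.29 with a standard error of 0.078, adjusted p = 0.0114 by limma), and the log2 fold change was −0.19 with the date as a term (adjusted p = 0.426). The kinases Mvk (−0.19 on the log2 scale) and Pmvk (0.041), the decarboxylase Mvd (0.11) and the farnesyl diphosphate synthase Fdps (−0.082) did not pass the test, with adjusted p from 0.0994 for Mvk to 0.745 for Pmvk. Mvk was called lower under 75th-percentile scaling (−0.27, adjusted p = 0.0363).

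Fdft1, squalene synthase, commits farnesyl units to sterols and showed the largest change of the synthesis enzymes. It had 318, 361, 298, 309 and 389 normalized counts in Mrc1Cre Xpr1fl/fl samples 1 to 5 and 497, 452, 502 and 490.0 in Xpr1fl/fl samples 1 to 4. The genotypes were separate, with Mrc1Cre Xpr1fl/fl sample 5 nearest to the controls, and the mean was 1.45-fold lower (335 ± 38.6 against 485 ± 22.9, mean ± SD, n = 5 and 4, log2 fold change −0.54 with a standard error of 0.095, adjusted p = 0.00103 by limma). Within the earliest date the log2 difference was −0.31 and did not pass the test (adjusted p = 0.23). Fdft1 lies opposite the highly expressed Ctsb on the other strand, and Ctsb did not pass the test (197834 and 197381 normalized counts on average).

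The next enzymes of the segment, squalene epoxidase Sqle (339 to 465 against 365 to 416) and lanosterol synthase Lss, did not pass the test (−0.039 and 0.07 on the log2 scale). Lss varied more within genotypes than between them, at 451, 306, 526, 475 and 479 in Mrc1Cre Xpr1fl/fl samples 1 to 5 and 302, 575, 344 and 518 in Xpr1fl/fl samples 1 to 4. Both the lowest and the highest value belonged to controls.

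Among the 8 genes from lanosterol to cholesterol, 1 was lower, 1 was higher and 6 did not pass the test (25% called, against 43.1% of all genes). Tm7sf2, a sterol reductase whose reaction is shared with the nuclear envelope protein LBR, had 205, 216, 200.4, 172 and 246 normalized counts in Mrc1Cre Xpr1fl/fl samples 1 to 5 and 287, 249, 307 and 288 in Xpr1fl/fl samples 1 to 4. All Mrc1Cre Xpr1fl/fl samples were below all controls, the highest of the former and the lowest of the latter being close (log2 fold change −0.45 with a standard error of 0.12, adjusted p = 0.00937 by limma). The log2 fold change was smaller, −0.19 with the date as a term (adjusted p = 0.583). Tm7sf2 overlaps Vps51 on the same strand, so reads could be divided between them, and Vps51 had 1285 normalized counts on average in both genotypes. Sc5d, the desaturase of the next-to-last steps, moved the other way, with 510.3, 473, 479, 459 and 468 in Mrc1Cre Xpr1fl/fl and 403, 370.2, 385 and 431 in Xpr1fl/fl samples. Every Mrc1Cre Xpr1fl/fl sample was above every control (log2 fold change 0.27 with a standard error of 0.074, adjusted p = 0.013 by limma), although the adjusted p was 0.0578 under 75th-percentile scaling, and the log2 fold change was 0.28 with the date as a term (adjusted p = 0.206).

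The demethylase Cyp51 (0.043 on the log2 scale), the methyl-removing enzymes Msmo1 (0.15), Nsdhl (0.0049) and Hsd17b7 (−0.18), the isomerase Ebp (0.13) and the terminal reductase Dhcr7 (−0.054) did not pass the test, with adjusted p from 0.111 for Ebp to 0.965 for Nsdhl. Hsd17b7 was the lowest of them and the least certain (55.9 to 128 against 74.1 to 106 normalized counts, 95% confidence interval −0.72 to 0.35). Over the 18 synthesis enzymes 1 was higher and 4 were lower, 27.8% called against 43.1% of all genes tested, with a median log2 fold change of −0.047 beside 0.005 over all genes. Under 75th-percentile scaling none was higher and 5 were lower (27.8%), beside 14.7% higher and 27.3% lower of all genes. The median was then −0.125 beside −0.074. With the date as a term the median was 0.005 beside 0.012 over all genes.

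Of the 4 genes that sense sterol, 3 were higher in Mrc1Cre Xpr1fl/fl macrophages and 1 did not pass the test (75% called and higher, while 43.1% of all genes were called and 21.5% were higher). None of the 4 passed with the date as a term. Srebf2, which encodes SREBP2, had 2433, 2391, 2424, 2215 and 2301 normalized counts in Mrc1Cre Xpr1fl/fl samples 1 to 5 and 2103, 2162, 2062 and 1963 in Xpr1fl/fl samples 1 to 4. The genotypes were separate by a small margin (log2 fold change 0.18 with a standard error of 0.05, adjusted p = 0.0128 by limma), and the log2 fold change was 0.13 with the date as a term (adjusted p = 0.393). Scap, the escort of the SREBP precursors, read 2209.6, 2343, 2387, 2308 and 2363 in Mrc1Cre Xpr1fl/fl and 1621, 1914, 2029 and 2121 in Xpr1fl/fl samples. Its Mrc1Cre Xpr1fl/fl samples were tightly grouped and all above the controls, of which sample 1 was lowest (log2 fold change 0.28 with a standard error of 0.073, adjusted p = 0.00968 by limma), and the log2 fold change was 0.36 with the date as a term (adjusted p = 0.0928). Scap overlaps Ptpn23 on the other strand, which was higher by about the same amount (0.28, adjusted p = 0.00608).

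Insig1, the sterol-regulated retention protein, had 1494, 1141, 1434, 1366 and 1342 normalized counts in Mrc1Cre Xpr1fl/fl samples 1 to 5 and 1046, 1126, 1045 and 1233 in Xpr1fl/fl samples 1 to 4. Mrc1Cre Xpr1fl/fl sample 2 lay within the control range and the other 4 above it (log2 fold change 0.28 with a standard error of 0.084, adjusted p = 0.0182 by limma). The call was lost without Xpr1fl/fl sample 1 (adjusted p = 0.0509) and without Xpr1fl/fl sample 3 (adjusted p = 0.0556), and the log2 fold change was 0.32 with the date as a term (adjusted p = 0.18). Insig2, its less regulated relative, spread from 418 to 789 in Mrc1Cre Xpr1fl/fl and from 465 to 599 in Xpr1fl/fl samples and did not pass the test (0.065, adjusted p = 0.78). Under 75th-percentile scaling only Scap of the 4 passed the test (25% called, against 42.0% of all genes). The limma adjusted p was then 0.128 for Srebf2 and 0.0664 for Insig1. The median log2 fold change of the 4 genes was 0.15 instead of 0.23.

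**Figure D2:**
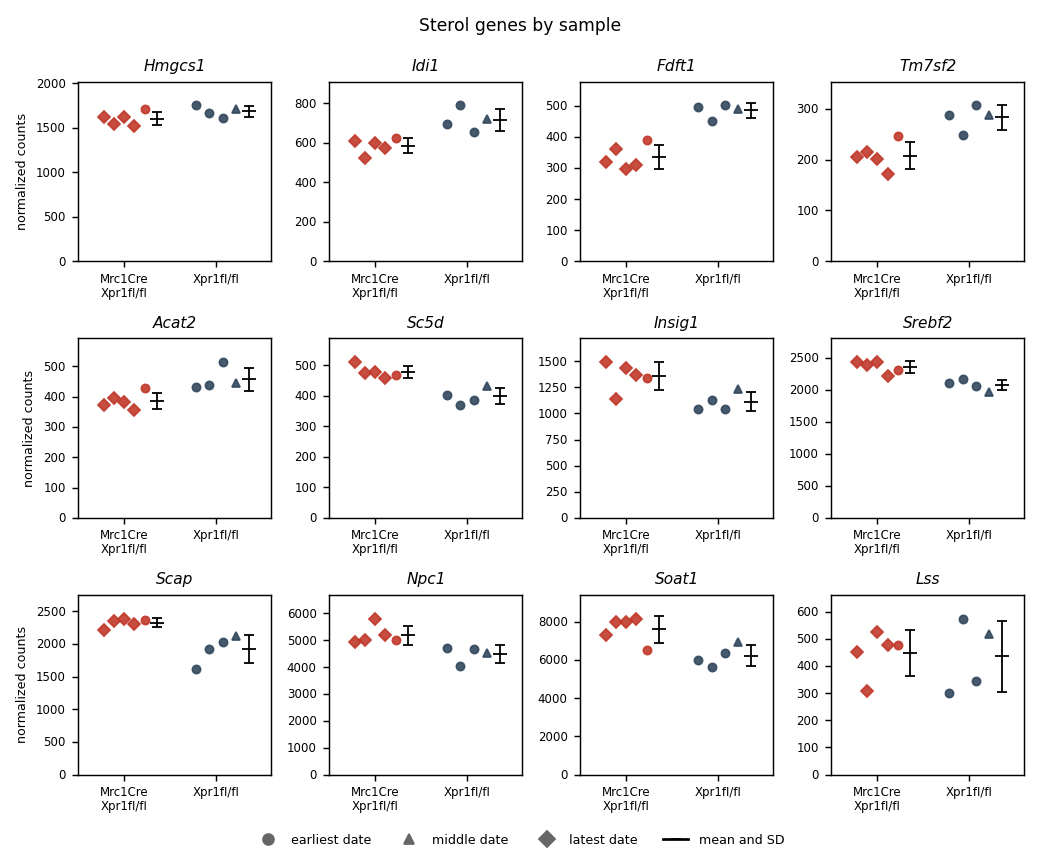
Normalized counts of 12 sterol genes are plotted for every sample (5 Mrc1Cre Xpr1fl/fl in red, 4 Xpr1fl/fl in dark blue, shapes for the date in the column name, bars for mean and SD, axes from 0). Idi1, Fdft1, Tm7sf2 and Acat2 lie lower and Sc5d, Srebf2, Scap and Npc1 higher in all red points than in all dark ones, whereas Hmgcs1, Insig1, Soat1 and Lss overlap.

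Promoter sequences of the genes were searched for elements known from SREBP target genes. The following 3 were looked for on both strands of RefSeq promoters (GRCm38.p6, 250 bases before to 50 bases after the start), of which 26 of the 32 genes had an entry. TCACNCCAC, the core of a sterol regulatory element, was found in 1 of the 26 (3.85%), Hmgcs1, and in 1.44% of 27025 genes. CACGTG, an E-box that reads the same on both strands, was found in 5 (19.2%), namely Hsd17b7, Sc5d, Dhcr7, Insig1 and Scap, against 8.09% of all genes. CCAAT, the NF-Y box, was found in 21 (80.8%) against 41.1% of all genes, and in 19 of the 21 sterol genes with an entry and 2 of the 5 fatty acid genes. These matches are descriptions of letters in a window and give no evidence of binding.

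The 250 bases before the start are shown for 4 genes that differ in motif and in response, with matches in capitals: Hmgcs1 with the sterol regulatory element and no call, Insig1 and Sc5d with an E-box and higher values, and Fads2 with none of the 3 motifs and the largest fall. Of the other E-box genes, Scap was higher, while Hsd17b7 and Dhcr7 did not pass the test. NF-Y boxes were found both in genes that were lower (Idi1 and Tm7sf2) and in genes that were higher (Srebf2 and Soat1). A link between motif and response was not tested. In Hmgcs1 (chr13:119690101-119690350, plus strand) the element begins 137 bases before the start and is flanked by 3 NF-Y boxes written on the other strand as ATTGG. In Insig1 (chr5:28071162-28071411, plus strand) and Sc5d (chr9:42264301-42264550, minus strand) the E-box begins 101 and 98 bases before the start, each with 1 such NF-Y box. Fads2 (chr19:10101504-10101753, minus strand) had no capital.
Hmgcs1: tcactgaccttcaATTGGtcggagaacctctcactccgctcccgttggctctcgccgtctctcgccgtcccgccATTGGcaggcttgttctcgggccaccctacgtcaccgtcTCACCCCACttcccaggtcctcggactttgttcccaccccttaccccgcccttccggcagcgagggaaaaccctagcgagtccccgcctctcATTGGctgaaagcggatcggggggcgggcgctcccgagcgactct
Insig1: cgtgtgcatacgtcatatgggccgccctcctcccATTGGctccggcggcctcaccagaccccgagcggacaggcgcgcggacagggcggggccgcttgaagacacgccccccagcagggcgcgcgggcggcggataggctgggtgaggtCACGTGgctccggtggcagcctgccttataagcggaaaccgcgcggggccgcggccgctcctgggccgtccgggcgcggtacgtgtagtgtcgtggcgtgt
Sc5d: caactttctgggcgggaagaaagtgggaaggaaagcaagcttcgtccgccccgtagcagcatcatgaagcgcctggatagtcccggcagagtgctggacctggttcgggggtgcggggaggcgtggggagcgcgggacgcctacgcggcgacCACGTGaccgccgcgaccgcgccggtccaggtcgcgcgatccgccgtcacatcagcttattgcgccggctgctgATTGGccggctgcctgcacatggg
Fads2: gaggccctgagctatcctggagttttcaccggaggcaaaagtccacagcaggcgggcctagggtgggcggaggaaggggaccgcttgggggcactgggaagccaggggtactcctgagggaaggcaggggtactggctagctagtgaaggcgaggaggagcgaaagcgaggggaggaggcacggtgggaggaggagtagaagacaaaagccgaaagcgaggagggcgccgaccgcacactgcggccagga

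Transport and storage were read from 4 genes, of which 2 were higher and none lower (50% called, near the 43.1% of all genes). Npc1, the membrane protein that moves cholesterol out of lysosomes, had 4918, 5003, 5806, 5179.7 and 5019 normalized counts in Mrc1Cre Xpr1fl/fl samples 1 to 5 and 4709, 4021, 4688 and 4540.1 in Xpr1fl/fl samples 1 to 4. The genotypes were separate (log2 fold change 0.21 with a standard error of 0.065, adjusted p = 0.023 by limma), but the call was lost without Mrc1Cre Xpr1fl/fl sample 3 or Xpr1fl/fl sample 2, where the adjusted p was at most 0.0664, and under 75th-percentile scaling (0.126). The log2 fold change was 0.17 with the date as a term (adjusted p = 0.399), and Rmc1, which overlaps Npc1 on the other strand, did not pass the test (−0.20, adjusted p = 0.104). The soluble partner of NPC1, encoded by Npc2, did not pass the test, at 14594 to 15549.8 against 13467 to 16725 (log2 fold change −0.0026, 95% confidence interval −0.14 to 0.13). Soat1, which esterifies cholesterol for storage in droplets, had 7333, 7980.5, 8016, 8171 and 6504 in Mrc1Cre Xpr1fl/fl and 5999, 5615, 6370.0 and 6938 in Xpr1fl/fl samples. It was higher in the test (log2 fold change 0.29 with a standard error of 0.08, adjusted p = 0.0133 by limma), with Mrc1Cre Xpr1fl/fl sample 5 below Xpr1fl/fl sample 4. The log2 fold change of Soat1 was smaller, 0.12 with the date as a term (adjusted p = 0.458). The carrier Stard4 did not pass the test (−0.16, adjusted p = 0.169) and was called lower under 75th-percentile scaling (−0.24, adjusted p = 0.0412).

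In the fatty acid arm of 6 genes, 1 was higher, 2 were lower and 3 did not pass the test (50% called, near the 43.1% of all genes). Acaca, acetyl-CoA carboxylase, makes the malonyl-CoA from which fatty acids are built and had 1902, 1961, 1898, 1694 and 1298 normalized counts in Mrc1Cre Xpr1fl/fl samples 1 to 5 and 998, 1274, 1222 and 1196 in Xpr1fl/fl samples 1 to 4. The 4 Mrc1Cre Xpr1fl/fl samples of the latest date were well above the controls, while sample 5 was just above the highest of them. The mean was 1.49-fold higher (1751 ± 272 against 1172 ± 121, mean ± SD, n = 5 and 4, log2 fold change 0.57 with a standard error of 0.12, adjusted p = 0.00303 by limma). Against the controls of its date, sample 5 differed by 0.16 on the log2 scale (adjusted p = 0.499), so most of this difference cannot be told apart from the date. Tada2a, which overlaps Acaca on the other strand, did not pass the test (−0.15, adjusted p = 0.167).

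The enzymes on either side of Acaca did not pass the test. Acly, which cleaves citrate to acetyl-CoA, had 12849 to 16869 normalized counts in Mrc1Cre Xpr1fl/fl and 12681 to 14769 in Xpr1fl/fl samples (log2 fold change 0.12, adjusted p = 0.23), and it was called higher without Mrc1Cre Xpr1fl/fl sample 5 (adjusted p = 0.0252). Fasn, the fatty acid synthase, read 2941, 3712, 2724, 2433 and 3296 in Mrc1Cre Xpr1fl/fl and 2749.8, 2855, 3335 and 2644 in Xpr1fl/fl samples. The genotypes overlapped throughout and the difference did not pass the test (log2 fold change 0.051 with a standard error of 0.11, adjusted p = 0.745 by limma, 95% confidence interval −0.20 to 0.30). Elovl6, which lengthens the product, had 252 to 447 against 298 to 412 and did not pass the test (0.0086, adjusted p = 0.971).

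The desaturases of polyunsaturated fatty acids showed the clearest difference of the set. Fads2, which introduces the first double bond on the way from dietary linoleic and linolenic acid to arachidonic acid and its relatives, had 183, 191, 197, 187 and 218 normalized counts in Mrc1Cre Xpr1fl/fl samples 1 to 5 and 429.7, 436, 504 and 458 in Xpr1fl/fl samples 1 to 4. All Mrc1Cre Xpr1fl/fl samples were under the lowest control by a wide gap, and the mean was 2.34-fold lower (195 ± 13.9 against 457 ± 33.5, mean ± SD, n = 5 and 4, log2 fold change −1.22 with a standard error of 0.091, adjusted p = 7.82e-06 by limma). Of all genes tested, 8.32% had a larger absolute log2 fold change. The difference of sample 5 from the 3 controls of its date was −1.06 (limma adjusted p = 0.00533 with the date as a term, resting on 1 Mrc1Cre Xpr1fl/fl sample), and leaving out each sample in turn gave −1.26 to −1.17.

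Fads1, the partner desaturase further along that route, had 2506, 2613, 2911, 2713 and 2758 in Mrc1Cre Xpr1fl/fl and 3659, 3238, 3875 and 3816 in Xpr1fl/fl samples. Here too all controls were above all Mrc1Cre Xpr1fl/fl samples (log2 fold change −0.43 with a standard error of 0.065, adjusted p = 0.000376 by limma), and the difference within the earliest date was −0.38 without passing the test (adjusted p = 0.0702). Both genes lie in a cluster on chromosome 19 of GRCm39, Fads1 from 10160167 to 10174241 on the plus strand and Fads2 from 10038130 to 10079203 on the minus strand, with their starts 80964 bp apart. The third gene of the cluster, Fads3, ends 202 bp from Fads2 and did not pass the test (165 to 322 against 140.2 to 210.1 normalized counts, log2 fold change 0.42, adjusted p = 0.104).

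**Figure D3:**
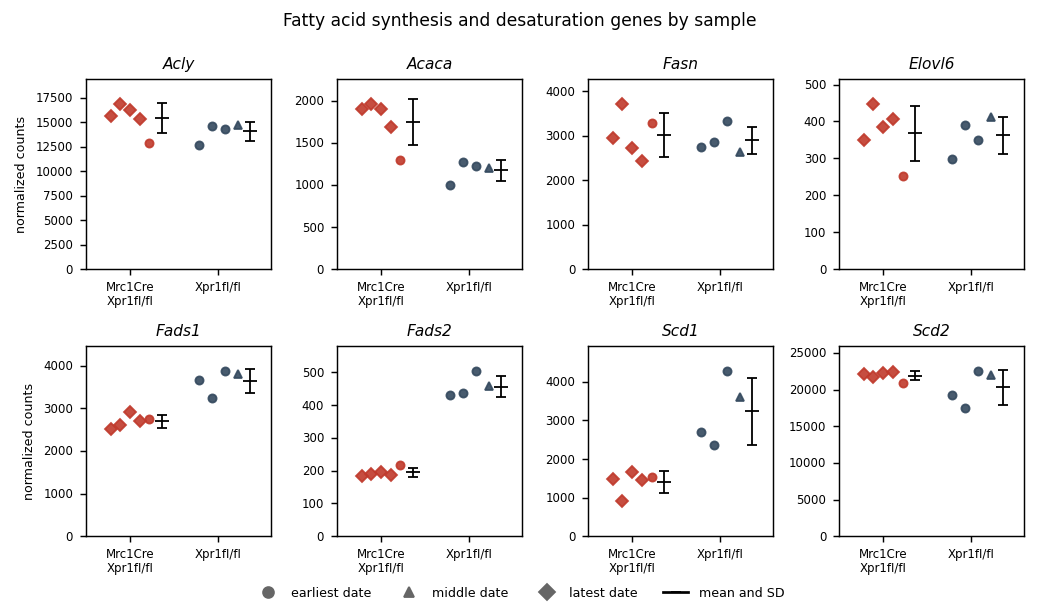
Normalized counts of the 6 fatty acid genes and of Scd1 and Scd2 are plotted for every sample (5 Mrc1Cre Xpr1fl/fl in red, 4 Xpr1fl/fl in dark blue, shapes for the date in the column name, bars for mean and SD, axes from 0). Fads1, Fads2 and Scd1 are lower in every red point, Acaca is higher with its earliest-date red point close to the controls, and Acly, Fasn, Elovl6 and Scd2 overlap.

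The erythroid, hepatocyte, endothelial and megakaryocyte marker sums were also lower in every Mrc1Cre Xpr1fl/fl sample, and the monocyte sum was higher. The macrophage sum and the neutrophil and granulocyte progenitor sum overlapped between the genotypes. Mrc1Cre Xpr1fl/fl sample 5 held an erythroid sum of 303295, above the 90721 to 154378 of the other 4 and nearest to the controls. The same sample was the one of its genotype nearest to the control mean for 7 of the 13 genes that passed. These were Fads2, Fdft1, Tm7sf2, Acat2, Idi1, Soat1 and Acaca, and the share over all genes was not counted. The sample is also the one that shares a date with controls. For Fads2 it had 218 normalized counts, beside 183 to 197 in the other 4 and 429.7 to 504 in Xpr1fl/fl samples. Xpr1fl/fl sample 4 held a hepatocyte sum of 32888, above the 16532 to 17362 of the other controls.

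**Figure D4:**
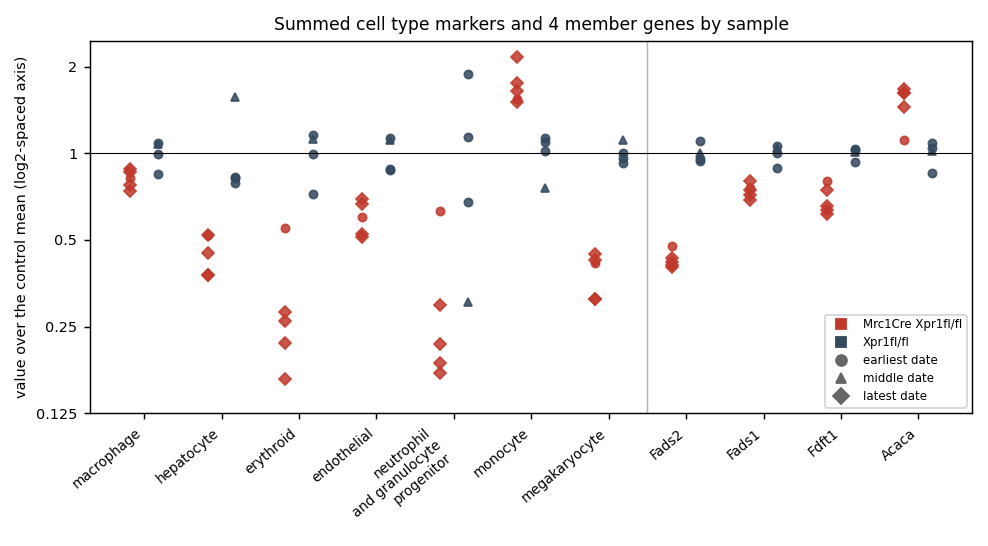
Summed marker lists of 7 cell types (left) and Fads2, Fads1, Fdft1 and Acaca (right) are drawn for every sample as a ratio to the control mean on a log-spaced axis (red Mrc1Cre Xpr1fl/fl, dark blue Xpr1fl/fl, shapes for the date). Erythroid, hepatocyte, endothelial and megakaryocyte sums are below the controls in all 5 red points, the monocyte sum is above them, and the red circle of sample 5 is the highest erythroid value of its genotype.

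Of the 26 sterol genes 6 were higher and 4 lower (38.5% called), with a median log2 fold change of 0.023 (−0.056 under 75th-percentile scaling), and of the 6 fatty acid genes 1 was higher and 2 lower (50% called), with a median of 0.030 (−0.049 after that scaling). With the date as a term the medians were 0.038 for the sterol arm and −0.24 for the fatty acid arm. Without that term, 43.1% of all genes tested were called, 21.5% higher and 21.6% lower. The median absolute log2 fold change was 0.155 in the sterol arm and 0.278 in the fatty acid arm, beside 0.246 over all genes tested. Averaged over the sterol genes, the log2 level was 9.60 to 9.67 in Mrc1Cre Xpr1fl/fl and 9.60 to 9.68 in Xpr1fl/fl samples. For the 18 synthesis enzymes alone it was 8.84 to 8.92 and 8.90 to 8.99, and for the fatty acid genes 10.48 to 10.76 and 10.64 to 10.85. The genotypes overlapped in all 3 averages, and no test was made of a score over chosen genes.

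Levels can be compared between genes only per length. Averaged over the 9 samples of both genotypes and divided by the median length of a gene's coding transcripts, Npc2 stood highest with 3840.0 normalized counts per kb, followed by Acly with 3366, and Hsd17b7 lowest with 19.1. Among the enzymes of sterol synthesis, Ebp (856), Idi1 (826) and Fdps (726) were highest, and Fdft1 reached 122. Fads1 was present at 776 per kb in Mrc1Cre Xpr1fl/fl and 1047 in Xpr1fl/fl samples, and Fads2 at 62.5 and 146, so the more strongly lowered desaturase was the scarcer one in both genotypes. Some levels depended on the length used. Per kb of the longest coding transcript Ebp (458), Fdps (456) and Hmgcs1 (388) were the highest synthesis enzymes and Idi1 stood at 212. Acaca stood at 1534 per kb of the median and 157 per kb of the longest coding transcript.

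Genes around the set were read from a list of 59 in 5 roles, of which 55 were in the table and tested (Ch25h, Cyp7b1, Elovl7 and Thrsp had no row). Of the 55, 19 were higher and 11 lower (54.5% called, against 43.1% of all genes tested). Their median log2 fold change was 0.12, with 0.039 under 75th-percentile scaling and 0.065 with the date as a term. Under 75th-percentile scaling 11 were higher and 16 lower, and with the date as a term 1, Por, was higher and 1, Cyb5r3, was lower (3.64% called, against 8.78%). The calls of Dhdds, Nus1, Stard3, Acsl4, Acsl5 and Hsd17b12 were lost under 75th-percentile scaling and under quantile normalization. Those of Pdss2 and Tmem97 were lost under the former only, and that of Mlxipl under the latter only. The share called under 75th-percentile scaling was 49.1%, against 42.0% of all genes. Quantile normalization gave 15 higher and 14 lower, beside 2967 and 2556 of all genes. Leaving out each sample in turn gave 16 to 22 higher and 8 to 13 lower, beside 2491 to 3050 and 2324 to 3031 of all genes. The call was lost on leaving out any 1 of 7 samples for Acsl4, of 6 for Nus1, of 5 for Pdss2, Gramd1b and Slc25a1 and of 4 for Cyp27a1, and without Xpr1fl/fl sample 4 for Mlxipl, with the adjusted p reaching 0.124 for Acsl4. The calls of Nus1, Cyp27a1, Gramd1b and Acsl4 were also lost under eBayes without trend (adjusted p from 0.0639 for Cyp27a1 to 0.0779 for Acsl4). With the date as a term the log2 fold change of Acsl4 turned to −0.044, and it was smaller than with all samples by over 1.5 times for Rnf145 (−0.13), Faf2 (0.19), Dhdds (0.10), Pdss2 (0.13), Cyp27a1 (−0.16), Lipa (0.21), Gramd1b (−0.15), Slc25a1 (−0.11), Acacb (0.76), Hsd17b12 (0.11) and Tecr (−0.13), and larger for Stard3 (0.31). Of the genes described next, Por overlaps Tmem120a (0.30, adjusted p = 0.00191) and Pdss1 overlaps Abi1 (0.28, adjusted p = 0.00287) on the other strand, both of which were higher too, and Me1 overlaps Rwdd2a (−0.80, adjusted p = 0.0338), which was lower.

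Of 8 genes of SREBP processing and degradation at the endoplasmic reticulum, 3 were higher and 1 lower (50% called, against 43.1% of all genes). Srebf1, which encodes the SREBP1 factors linked to fatty acid genes, had 3020.5, 3548, 2701, 3518 and 3018 normalized counts in Mrc1Cre Xpr1fl/fl samples 1 to 5 and 2913, 3413, 3565 and 3442 in Xpr1fl/fl samples 1 to 4. Its genotypes overlapped (log2 fold change −0.08 with a standard error of 0.089, adjusted p = 0.495 by limma). Erlin1, a scaffold of the membrane in which SREBP precursors are retained, was higher (2189.5 against 1677 normalized counts on average, log2 fold change 0.38, adjusted p = 0.000532), as was the intramembrane protease Mbtps2 that releases SREBPs (1139.5 against 888, 0.36). The other gene that rose was Faf2 (0.35). Rnf145, a ubiquitin ligase of sterol control, was lower (2516 against 3232, −0.36, adjusted p = 0.00339). Mbtps1, Rnf139 and Erlin2 did not pass the test.

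The isoprenoid branches, which draw farnesyl units away from sterols, held 9 genes, of which 5 were higher and none was lower (55.6% called, against 43.1% of all genes and 54.5% of the 55). None passed with the date as a term. Pdss1, a subunit that builds the ubiquinone tail, changed most (324 against 229 normalized counts on average, log2 fold change 0.50, adjusted p = 0.00949). Ggps1, which makes geranylgeranyl diphosphate, was next (864 against 695, 0.31), and Pdss2 (0.29), Dhdds (0.21) and Nus1 (0.15) were also higher. Coq2 and the prenyltransferase subunits Fnta, Fntb and Pggt1b did not pass the test. Under 75th-percentile scaling 2 of the 9 were higher and 1 was lower (33.3% called, against 42.0% of all genes). Dhdds was then 0.13 and Nus1 was 0.069. Under quantile normalization Dhdds was 0.14 and Nus1 was 0.050.

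Of 9 redox partners and oxysterol genes in the table, 2 were higher and 3 lower (55.6% called, against 43.1% of all genes). Por, the reductase that feeds electrons to CYP51 and to squalene epoxidase, had 7329, 7278, 8155, 7745 and 7279 normalized counts in Mrc1Cre Xpr1fl/fl samples 1 to 5 and 5292, 4459, 4992 and 5323 in Xpr1fl/fl samples 1 to 4. The genotypes were far apart (log2 fold change 0.59 with a standard error of 0.062, adjusted p = 4.73e-05 by limma), and sample 5 differed from the 3 controls of its date by a like amount (0.57, adjusted p = 0.0126). Cyb5r3, which reduces the cytochrome b5 used by sterol and fatty acid desaturases, went the other way, at 2510.4, 2371, 2437, 2449 and 2519 and 3196, 3284, 3202 and 3269. It too was separate (log2 fold change −0.40 with a standard error of 0.042, adjusted p = 4.79e-05 by limma) and differed by a like amount between sample 5 and the controls of its date (−0.36, adjusted p = 0.0207). Cyb5a itself did not pass the test (−0.095). Tmem97, a regulator of NPC1, was higher (0.21), and Cyp27a1, which makes an oxysterol, was lower (−0.26). Under 75th-percentile scaling Tmem97 was 0.14 and lost the call (limma adjusted p = 0.0808). Lbr, which shares the reaction of Tm7sf2, was lower as well (3259 against 3830.2, −0.23, adjusted p = 0.00822). Acat1, Erg28 and Ebpl did not pass the test.

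Trafficking and ester turnover held 7 genes, of which 3 were higher and 2 lower (71.4% called, against 43.1% of all genes), and none passed with the date as a term. Lipa, the lysosomal acid lipase that frees cholesterol upstream of NPC1 and NPC2, had 22529 against 18032 normalized counts on average (log2 fold change 0.32, adjusted p = 0.00702). The sterol exchangers Osbp (0.27) and Stard3 (0.19) were also higher. Under 75th-percentile scaling Stard3 was 0.12 and lost the call (limma adjusted p = 0.121). Gramd1c, a member of the family that carries plasma membrane cholesterol to the endoplasmic reticulum, fell to 103, 99.4, 133, 146 and 134 from 216, 201, 284 and 304 (log2 fold change −1.02 with a standard error of 0.17, adjusted p = 0.00067 by limma), and its relative Gramd1b was lower too (−0.35, adjusted p = 0.0434), with overlapping genotypes. Gramd1a and Nceh1 did not pass the test.

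Fatty acid supply, elongation and desaturation gave 6 higher and 5 lower of 22 genes (50% called, near the 43.1% of all genes), and none passed with the date as a term. Me1, the malic enzyme that supplies NADPH for fatty acid synthesis, had 509.8 against 304 normalized counts on average (log2 fold change 0.73, adjusted p = 0.00211). Elovl5, which elongates the products of FADS2, was higher (2527 against 1941, 0.38), opposite to the desaturases before and after it. Scd1, the desaturase of saturated fatty acids, had 1476, 923, 1670.1, 1459.8 and 1539 in Mrc1Cre Xpr1fl/fl samples 1 to 5 and 2694, 2353, 4279.7 and 3615 in Xpr1fl/fl samples 1 to 4. All controls were above all Mrc1Cre Xpr1fl/fl samples (log2 fold change −1.18 with a standard error of 0.19, adjusted p = 0.000685 by limma), while the difference within the earliest date (−0.96) did not pass the test (adjusted p = 0.11). The far more abundant Scd2 did not pass the test (21919.8 against 20302 normalized counts, 0.12, adjusted p = 0.219). Mid1ip1, which promotes the polymerization of acetyl-CoA carboxylase, was lower (−0.40), and Acacb, the mitochondrial form of that enzyme, was higher but scarce (18.6 to 80.3 against 7.5 to 16.3 normalized counts). The others that passed were Acsl4, Acsl5 and Hsd17b12, which were higher, and Slc25a1, Tecr and Mlxipl, which were lower. Acsl4, Acsl5 and Hsd17b12 were 0.097, 0.12 and 0.086 under 75th-percentile scaling, which lost these calls.

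**Figure D5:**
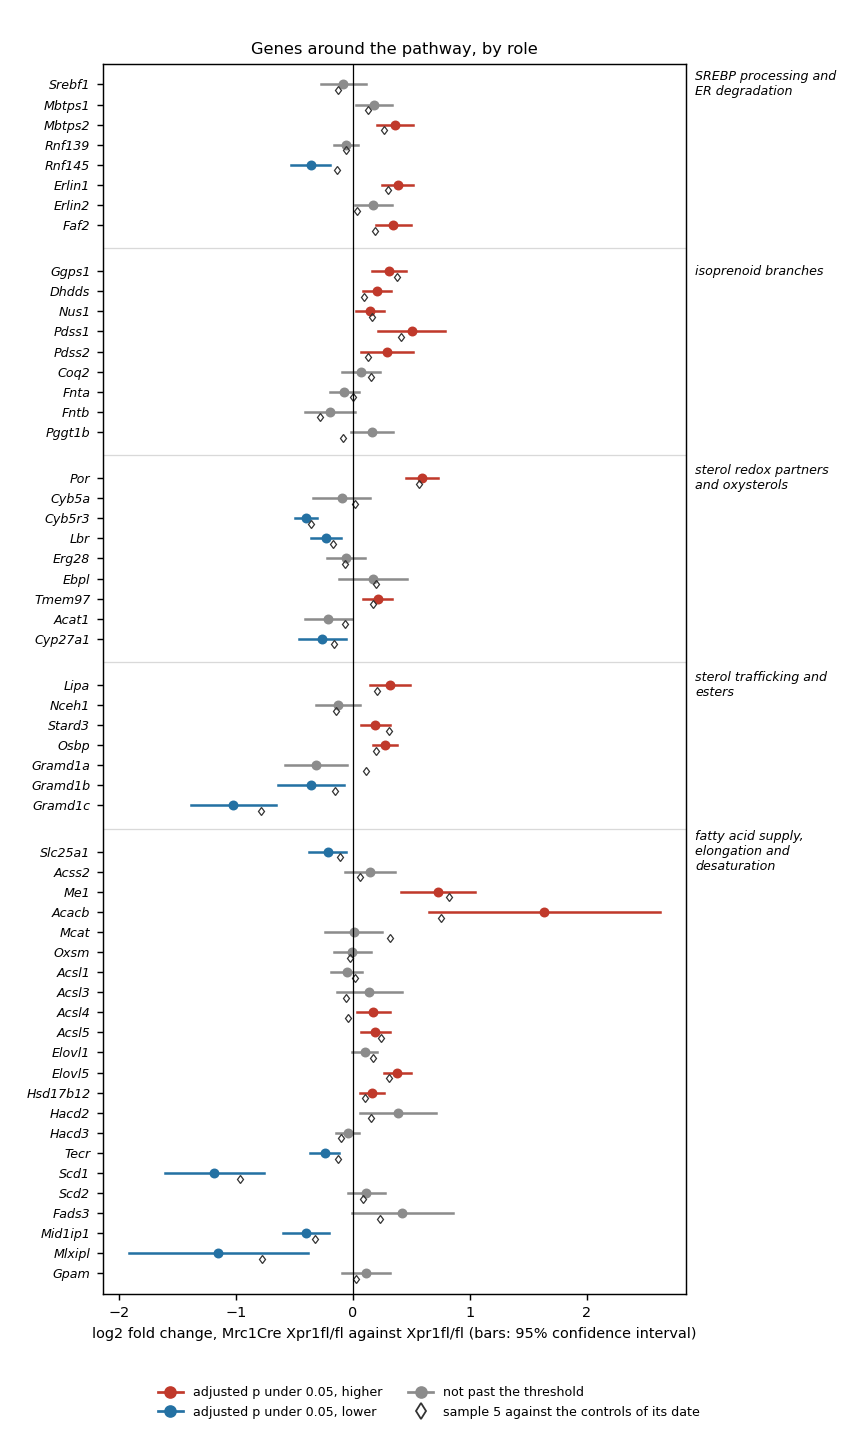
The log2 fold change of the 55 surrounding genes (Mrc1Cre Xpr1fl/fl against Xpr1fl/fl, 5 and 4 samples) is drawn by role with its unadjusted 95% confidence interval, red or blue where limma gave an adjusted p under 0.05, and open diamonds show Mrc1Cre Xpr1fl/fl sample 5 against the 3 controls of its date. Por and Cyb5r3 stand on opposite sides of 0, the isoprenoid genes that passed lie right of 0, and Gramd1c, Scd1 and Mlxipl lie farthest left.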

How the data were processed

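Bulk RNA-seq of sorted FL macrophages was available from 5 Mrc1Cre Xpr1fl/fl and 4 Xpr1fl/fl samples, each library made from 45 ng of total RNA with a stranded mRNA kit. The table deposited by the authors holds 1 signal value per gene and sample, namely gene counts that the authors divided by DESeq2 normalization factors after quantification with salmon on GRCm39 and import with tximport. Tool versions are not given in the sources used here. Symbols came from GENCODE mouse M39 (13698 of 13708 genes). All columns were matched to samples by name (0 were left unmatched). At the spacing that suited each sample best, 26% to 49.7% of its values under 10 came within 0.05 of a whole multiple, so whole reads were not recovered and no count test was run. limma 3.58.1 in R 4.3.3 (lmFit, eBayes with trend) was fitted to log2(normalized count + 1) of the 13594 genes tested, a scale that understates changes of low genes, with Benjamini-Hochberg adjustment over all of them and a threshold of 0.05. The fit was checked on simulated data. A sample's dates were read from its column name. Every gene of the set was named, and values per sample were given for Hmgcs1, Insig1, Srebf2, Fasn and, among genes past the threshold without overlap, the 6 with the largest rise and fall, with Lss and Soat1 added after their values were seen. Of the surrounding list, Srebf1 and within each role the 2 largest rises and falls with at least 50 normalized counts on average were named, and Por, Cyb5r3, Scd1, Gramd1c and the other named genes of that list were described more fully after their values were seen. Some genes of the lists are not reported here, and counts leave them out. The genes, lists and tests were chosen with earlier results of these data known. Alternatives were other pseudocounts (0.5 and 10), filters (none, or 50 normalized counts), 75th percentile scaling, quantile normalization, eBayes without trend or robust, a replicate block, the date as a term, leaving out each sample, and a limit of 0.5 on the absolute log2 fold change. Figures were drawn with matplotlib 3.10.9.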

Additional observations from a re-analysis of the deposited data

Results flagged for a closer look

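Of 64 groups of samples examined (each of the 32 genes in each genotype), 2 held a value far from the others, where chance alone gives about 1 in 20 groups, or 3.2. Acat2 in Xpr1fl/fl sample 3 was 514.3 normalized counts, while the other controls had 432.6 to 444.5. Without that sample the difference in Acat2 between genotypes did not pass the test (limma adjusted p = 0.123). Ebp in Mrc1Cre Xpr1fl/fl sample 1 was 1447.1 normalized counts, while the other samples of that genotype had 1230.7 to 1282.8.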

How the results depend on the processing

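The 13 calls in the set were unchanged with other pseudocounts, other filters, and eBayes without trend or with robust fitting, and eBayes without trend added Mvk as lower (−0.19, limma adjusted p = 0.0437). Quantile normalization lost the calls of Tm7sf2, Acat2, Srebf2 and Npc1 (limma adjusted p from 0.0728 for Tm7sf2 to 0.254 for Npc1). Scaling to the 75th percentile gave 3 higher in the set and 11 higher in the surrounding list, and a sterol median of −0.0557, and quantile normalization a sterol median of 0.0984. With the date as a term, 0 genes of the set were higher and 1 lower, 1 and 1 of the surrounding list, and 577 and 617 of all genes, and the fatty acid median was −0.242, as it was within the earliest date. With an absolute log2 fold change over 0.5, these counts were 1 and 2, 4 and 3, and 890 and 1911. Leaving out each sample gave 6 to 8 higher and 5 or 6 lower in the set, beside 2491 to 3050 and 2324 to 3031 of all genes. The sterol median was then −0.018 to 0.031 and the fatty acid median −0.047 to 0.077. The median level per kb over the set was 294.2 with the median and 194.2 with the longest coding transcript.

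In the set, signs turned only for genes that did not pass the test with all 9 samples. Of the surrounding genes that passed, Acsl4 alone turned. Surrounding genes that did not pass are left out of the lists below. Some of them turned too with the date as a term, such as Gramd1a (−0.31 to 0.11) and Pggt1b (0.16 to −0.086). With the date as a term the log2 fold changes were Acly −0.108, Acsl4 −0.0444, Elovl6 −0.446, Fdps 0.0561, Hmgcs1 0.0279, Insig2 −0.15 and Mvd −0.017. Quantile normalization gave Fasn −0.052, Hsd17b7 0.16 and Sqle 0.0473. Scaling to the 75th percentile gave Cyp51 −0.036, Elovl6 −0.070, Fasn −0.0274, Insig2 −0.0135, Lss −0.00893, Nsdhl −0.0737 and Pmvk −0.0377. Leaving out each sample gave ranges of −0.066 to 0.16 for Insig2, −0.053 to 0.051 for Npc2, −0.082 to 0.14 for Elovl6, −0.027 to 0.13 for Fasn, −0.045 to 0.037 for Nsdhl, −0.11 to 0.0058 for Sqle, −0.011 to 0.091 for Pmvk and −0.088 to 0.22 for Lss. The causes were not tested.

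Replicate numbers are shared by the genotypes, but deviations of same-numbered samples correlated at −0.033, 0.147, −0.011 and −0.031 over genes, and only pair 2 correlated best with its own number, so the samples were not treated as pairs. With the replicate number as a block, 6226 genes were called (3146 higher), Acly was called higher in the set (limma adjusted p = 0.0193), Pmvk was −0.0107, and the 13 calls stayed. Absolute depth is unknown, which limits what can be said of low genes such as Hsd17b7.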
